A study of Mus musculus with 9 samples.

Results

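The G2 and mitosis genes are 42 mouse genes that work between the end of DNA synthesis and the separation of daughter cells. They were taken by symbol from a fixed list in 8 functional roles, and all 42 were found among the 52550 gene identifiers of the count table. Their levels were followed in haematopoietic stem cells (HSCs), the marrow cells from which blood is renewed, of young, old and old Sphk2-deficient mice.

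The study measured 9 libraries, 3 in each of 3 groups. Young wild-type (WT) mice were 2 months old and old WT mice 22 to 24 months old. The labels give no strain for either WT group. The third group came from mice of 22 to 24 months whose genotype is spelled B6N.129S6-Sphk2tm1Rlp/J (Sphk2 cKO) in the labels and KO in the sample titles. The labels name no Cre, promoter or treatment for this allele, so it is called the old KO group here. Sphk2 encodes sphingosine kinase 2, and the series title speaks of sphingosine metabolism, ferroptosis and the rejuvenation of aged stem cells. Marrow was flushed from femora and tibiae, red cells were lysed, and 1000 cells per library were sorted as Lin-, Sca1+, c-Kit+, CD48- and CD150+. The cDNA was tailed with poly(A), amplified for 13 cycles and read from both ends over 150 bp. Libraries of a group are technical replicates per the labels, which name no animals, so p-values measure only the spread between these libraries.

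As background, the cyclin-dependent kinase CDK1 with cyclin B drives a cell into mitosis, and Polo-like and Aurora kinases then build the spindle. Kinetochores tie chromosomes to spindle microtubules, and the spindle checkpoint holds back the anaphase promoting complex until all chromosomes are attached. Most HSCs rest outside the cell cycle in the adult marrow, and resting cells keep this programme silent. In dividing cells many of its genes are switched on together in G2 through the MuvB complex with B-MYB and FOXM1, which acts at a short promoter sequence called the cell cycle genes homology region (CHR), often beside CCAAT boxes bound by NF-Y.

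The promoter sequences of 8 members are shown as examples. Ube2c, Cdc20, Cenpa and Bub3 were among the members called lower in both old groups than in young WT. Cdk1 and Ccnb1 were among those called lower in the old KO group than in young WT. Hmgb2 and Cks2 were the members whose reads exceeded the background in all 3 old KO libraries. Plk1 and Aurkb, also called lower in both old groups, are not printed, and Aurkb has no window. Several of these calls were lost under other settings, as given below. Each line gives the gene's own strand from 140 bases before the RefSeq start to 30 bases after it in build GRCm38.p6. Capitals mark the CHR element TTTGAA, its variants TTCGAA (the first) and TTTAAA (the second), and the CCAAT box, on either strand, so that TTCAAA and ATTGG are the same motifs read from the other strand.
Ube2c (chr2:164769789-164769958, plus strand): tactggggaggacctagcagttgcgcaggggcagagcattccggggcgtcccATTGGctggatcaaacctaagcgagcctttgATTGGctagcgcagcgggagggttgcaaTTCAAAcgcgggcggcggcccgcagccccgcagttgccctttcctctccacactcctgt
Cdc20 (chr4:118437314-118437483, minus strand): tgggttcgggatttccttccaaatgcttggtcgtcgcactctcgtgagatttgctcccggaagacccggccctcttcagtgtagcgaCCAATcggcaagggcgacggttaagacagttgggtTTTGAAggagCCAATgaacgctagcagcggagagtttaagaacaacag
Cenpa (chr5:30666746-30666915, plus strand): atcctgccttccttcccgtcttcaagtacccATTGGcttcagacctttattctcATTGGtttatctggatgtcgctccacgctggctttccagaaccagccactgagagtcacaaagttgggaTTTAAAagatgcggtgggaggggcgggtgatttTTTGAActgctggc
Bub3 (chr7:131560230-131560399, plus strand): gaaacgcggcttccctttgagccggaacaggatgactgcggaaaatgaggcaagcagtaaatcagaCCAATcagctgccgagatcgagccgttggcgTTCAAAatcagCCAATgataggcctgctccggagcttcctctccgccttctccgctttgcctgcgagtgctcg
Cdk1 (chr10:69352883-69353052, minus strand): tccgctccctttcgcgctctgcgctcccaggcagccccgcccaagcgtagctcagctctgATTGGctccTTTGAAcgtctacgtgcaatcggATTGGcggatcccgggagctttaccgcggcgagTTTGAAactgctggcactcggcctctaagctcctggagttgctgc
Ccnb1 (chr13:100786457-100786626, minus strand): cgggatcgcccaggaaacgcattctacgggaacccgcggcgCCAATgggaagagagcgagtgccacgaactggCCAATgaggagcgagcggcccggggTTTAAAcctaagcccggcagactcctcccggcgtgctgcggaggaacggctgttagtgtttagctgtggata
Hmgb2 (chr8:57511703-57511872, plus strand): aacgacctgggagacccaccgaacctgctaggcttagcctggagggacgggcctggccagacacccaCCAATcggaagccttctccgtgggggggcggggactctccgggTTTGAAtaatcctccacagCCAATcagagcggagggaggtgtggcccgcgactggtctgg
Cks2 (chr13:51645092-51645261, plus strand): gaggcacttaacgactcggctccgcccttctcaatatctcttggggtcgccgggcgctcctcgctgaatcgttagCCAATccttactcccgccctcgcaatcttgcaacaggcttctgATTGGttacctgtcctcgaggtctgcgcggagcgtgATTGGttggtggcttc

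Promoter windows of 300 bases, from 250 before to 50 after the RefSeq start, were given for 35 of the 42 members. In these, the CHR element TTTGAA stood in 74.3% of members (26 of 35) against 20.2% of 27025 genes with a window. The first variant stood in 11.4% against 1.8%, the second variant in 25.7% against 14.9%, and the CCAAT box in 80.0% against 41.1%. A copy of the element or of either variant within 50 bases of the start was found in 77.1% of members (27 of 35) and in 9.91% of all genes. Such a copy together with 2 or more CCAAT boxes was found in 45.7% of members and 1.23% of all genes. Matches were searched on both strands and matches of different motifs could overlap. In the printed sequences, Cdk1 has copies of the element 71 and 15 bases before the start, Cdc20 has one 18 bases before it, and Ube2c has one 29 bases before it on the other strand. Ccnb1 holds the second variant 42 bases before the start and no copy of the element. Cks2, which shares the CCAAT boxes, has none of the 3 CHR letters in its window. The CHR letters near the start were less frequent in a list of 126 other G2 and mitosis genes (39.2% of 102 windows) and in 46 DNA replication genes (10.5% of 38 windows). These shares describe letters in a window and not bound sites.

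**Figure D1:**
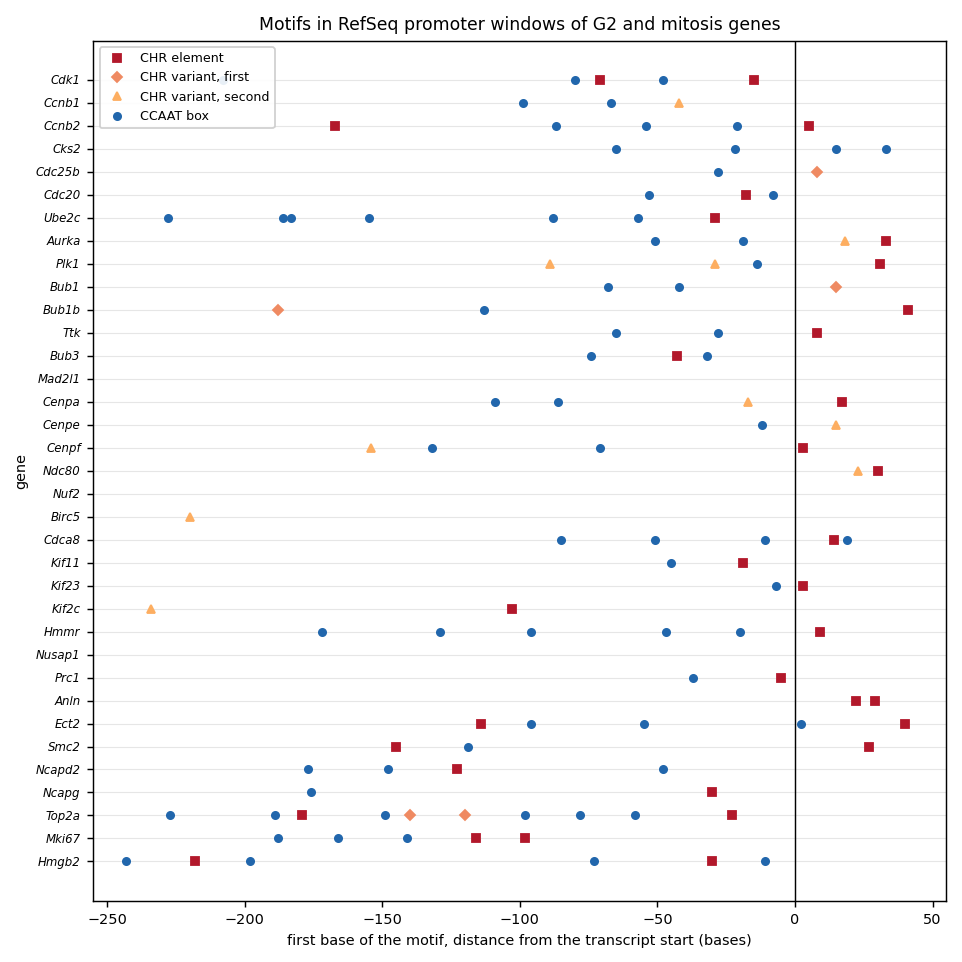
Positions of the CHR element, its variants and the CCAAT box in the promoter windows of the members, 1 row per gene, with bases from the RefSeq start on the x axis. Copies of the element gather within 50 bases of the start, where 65.7% of members have one against 5.72% of all genes.

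The groups differed in depth and in the share of reads that fell in genes. Counts in genes were 28088637 to 74021822 per young WT library, 3145167 to 5115003 per old WT library and 11284847 to 17544945 per old KO library. Reads outside genes made up 6.51% to 12.5%, 80.8% to 87.7% and 45.0% to 61.9% of counts in these groups. Background was read from the exons of olfactory receptor genes, which blood cells leave silent, as counts per exon length, and a gene was taken as above background where a library held 20 or more of its counts and 5 or more times the count expected from this density over its exons. Sphk2, the targeted gene, lay at 3.13 to 22.8 CPM (counts per 1000000 counts in genes) in young WT, 0.318 to 10.2 in old WT and 0.456 to 2.04 in old KO, and was above background in none of the 6 old libraries, so it does not check the genotype. Of 12 stem cell markers, 11 were above background in each young WT library, 1 to 2 in old WT and 7 to 9 in old KO libraries. Their summed level was 1574 to 1816, 683 to 1959 and 1081 to 2977 CPM. Erythroid markers, which mark another dividing lineage, summed to 1467 to 2814 CPM in young WT with 5 to 8 of 10 above background, 54.5 to 713 in old WT with 0 to 1, and 603 to 1365 in old KO with 1 to 2 and Hba-a2 at 0 counts. Neutrophil and myeloid markers summed to 719 to 1080, 712 to 1203 and 1144 to 2293 CPM, with 6 to 7, 3 to 4 and 3 to 8 of 12 above background. Megakaryocyte markers summed to 384 to 846, 129 to 432 and 274 to 608 CPM, with 4 to 5, 0 to 1 and 2 to 3 of 6 above background. B cell markers summed to 10.7 to 99.6, 77.8 to 133 and 24.2 to 183 CPM with at most 5 of 9 above background in any library, T and NK cell markers to 0.645 to 1.27, 38.5 to 90.5 and 15.6 to 180 CPM with at most 2 of 8, and endothelial and stromal markers to 11.4 to 177, 119 to 159 and 38.6 to 307 CPM with at most 2 of 7. Depth was varied only by thinning all libraries to 3145167 counts, and background only by subtraction. The part of depth, background reads or other cells in the values below was not otherwise tested. In bulk samples fewer cells of a type and less RNA per cell cannot be told apart.

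Most of the 42 members had reads above background in young WT and few had in the old libraries, where far fewer genes of any kind were above background. By the measure above, 36, 34 and 27 of the 42 members were above background in the young WT libraries, against 0, 2 and 1 in old WT, with 3, 3 and 5 in old KO. Every young WT library had more such members than any old library. Of 21819 protein-coding genes, 7825, 8082 and 7352 were above background in young WT, against 915, 1088 and 630 in old WT, with 2871, 2862 and 4142 in old KO, so that much of the drop was shared with genes in general. Summed over the 42 members, young WT libraries had 2352, 1951 and 1733 CPM, of which background accounts for 3.87, 9.53 and 10.9 CPM. Old WT libraries had 613, 1202 and 1026 CPM with an expected background of 452, 412 and 700 CPM, and old KO libraries had 414, 272 and 432 CPM with an expected background of 116, 150 and 73.4 CPM. The median member stood 325, 90.6 and 43.9 times over background in young WT. It stood 1.28, 1.34 and 1.36 times over it in old WT, and 1.35, 1.32 and 1.28 times in old KO. By this cut, a member's CPM value in an old library that is not above background is not taken as distinct from background reads. Some such values lay near the cut, as did Mad2l1 in old KO replicate 1 with 259 counts at 4.50 times background.

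**Figure D2:**
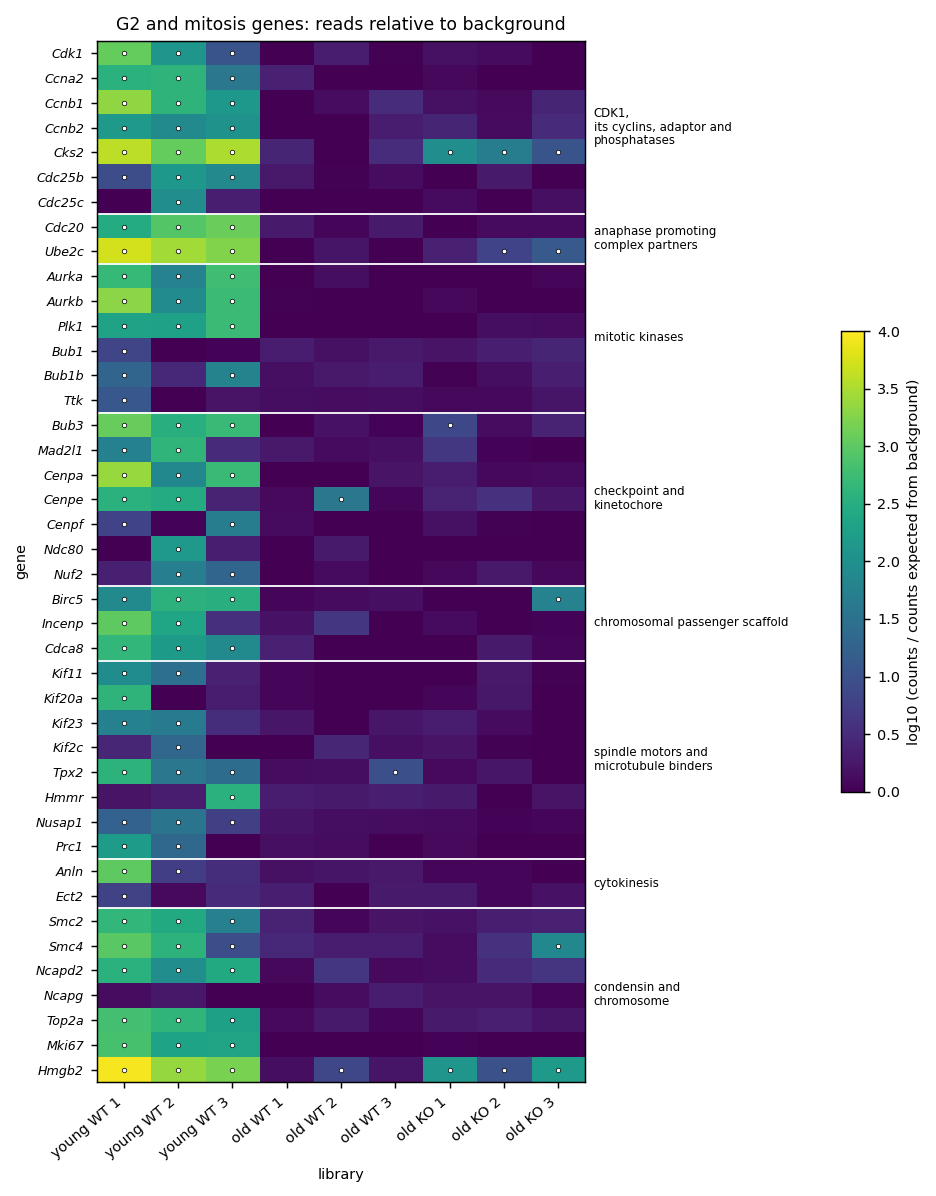
Counts over expected background (log10 colour scale) for the 42 members, ordered by role, in each of the 9 libraries, with white dots on values above background. The young WT columns carry 36, 34 and 27 dots, the old WT columns 0, 2 and 1 and the old KO columns 3, 3 and 5.

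In young WT, 23 members were above background in all 3 libraries, 10 in 2, 8 in 1 and Ncapg in none. In old WT, 39 members were above background in no library, and Cenpe and Hmgb2 in replicate 2 and Tpx2 in replicate 3 were the exceptions. These 39 make 92.9% of the members, close to the 90.8% of all protein-coding genes that were above background in no old WT library. In old KO, Cks2 and Hmgb2 were above background in all 3 libraries, Ube2c in replicates 2 and 3, Bub3 in replicate 1, and Birc5 and Smc4 in replicate 3. The other 36 members (85.7%) were above background in no old KO library, against 73.0% of all protein-coding genes. Among genes above background in at least 1 young WT library, 92.7% of 41 members and 83.2% of 10187 protein-coding genes were so in no old WT library, and 85.4% and 47.4% in no old KO library. For genes above background in each young WT library, these shares were 91.3% of 23 members and 74.5% of 5385 genes for old WT, and 73.9% and 27.8% for old KO. These shares are given with no test. The sets were picked by their young WT reads and were not matched on young level or exon length. The gaps between them therefore cannot be read as a trait of the members. No member had 0 counts in any library.

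Against young WT, 8 members were called lower and 5 higher in old WT on the CPM scale, by edgeR's quasi-likelihood test with Benjamini-Hochberg adjustment over 32582 genes at 0.05. All 42 members were tested. Among all tested genes 3.48% were called lower and 68.4% higher in this comparison. The lower members were Ube2c, Cdc20, Aurkb, Plk1, Cenpa, Hmgb2, Cks2 and Bub3, all of them above background in each young WT library. The higher members were Ncapg, Bub1, Ect2, Ttk and Kif2c, none of them above background in any old library. The median log2 fold change was -0.64 over the members and 5.30 over all tested genes. TMM factors, which centre the bulk of genes, shifted the median of all genes by -3.90 in this comparison, 1.88 in old KO against old WT and -2.01 in old KO against young WT. With them 24 members were called lower and 1 (Ncapg) higher in old WT than in young WT, among 18.4% and 18.6% of all genes. The 8 lower members were among the 24, and Kif2c turned to -0.12. When only 8575 genes above background in at least 2 libraries of a group were fitted with TMM factors, 33 members were tested and Ube2c alone was called, lower, among 2.12% lower and 1.62% higher of these genes. All 33 entered that fit through at least 2 young WT libraries, the group where they are high. Genes picked this way tend to be lower elsewhere, so lower values among the 33 cannot be read apart from this choice. None of the 5 members called higher was among these 33, so the fit says nothing on higher calls. After subtraction of the background edgeR called 0 members, among 0.0816% lower and 0.117% higher of 8575 genes, and 6 of the same 33 had an unadjusted p under 0.05. The share of all genes under this unadjusted cut was not computed, here or below. Such counts therefore cannot be read as a result about the members. In CPM, all 3 old WT libraries lay below all 3 young WT libraries in 8 members and above them in 7, as in 5.87% and 65% of all tested genes, and in 22.4% and 9.19% of those above background in 2 libraries of a group.

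No member was called between old KO and old WT by edgeR's test. The counts were 0 lower and 0 higher, among 0% and 0.00614% of all genes. An unadjusted p under 0.05 was found for 9 members, a cut at which the share of all genes was not computed. The median log2 fold change was -2.03 over the members and -1.91 over all genes, and -0.18 and -0.04 with TMM factors. With these edgeR again called 0 members, among 0% and 0.457% of all genes, and 4 had an unadjusted p under 0.05. Among the 8575 genes above background edgeR called 0 members with TMM factors, among 0.0117% lower and 1.42% higher. After subtraction it called 0, among 0.0233% and 0.163%. Of the 33 members in these fits, 4 and 2 had an unadjusted p under 0.05. Old WT reads would have brought 0 of the 33 into the fits, and old KO reads 3. The others entered through young WT alone, and most of them were above background in no old library. For those members the 0 calls cannot tell whether the old groups differed. DESeq2 called 3 members higher in old KO, Ube2c, Hmgb2 and Cks2, among 6.23% of all genes, and limma-voom called none. A fit of the 6 compared libraries alone called 16 members lower, among 27.6% of the genes it tested, and no other alternative called a member lower. In 35 members all 3 old KO libraries lay below all 3 old WT libraries in CPM, as in 48.8% of all tested genes and 27.2% of those above background in 2 libraries of a group. The expected background was also lower in each old KO library than in each old WT library, at 0.322 to 0.657 against 1.81 to 3.07 CPM per kb. In no member did all old KO libraries lie above all old WT libraries, as 1.91% of all genes did and 7.19% of those above background in 2 libraries of a group.

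Against young WT, 15 members were called lower and 4 higher in old KO, among 3.93% and 52.7% of all tested genes. The lower members were Ube2c, Cdc20, Cdk1, Aurkb, Top2a, Incenp, Aurka, Ccna2, Smc2, Cdca8, Cenpa, Plk1, Mki67, Ccnb1 and Bub3, and the higher ones Ncapg, Bub1, Ect2 and Ttk. The median log2 fold change was -2.21 over the members and 3.244 over all genes. With TMM factors 18 members were called lower, the 15 among them, and 0 higher, among 5.84% and 6.92% of all genes. An unadjusted p under 0.05 was found for 32 members, again with no share of all genes computed at that cut. Among the genes above background, edgeR called none of the 33 members tested, with TMM factors or after subtraction, among 0% lower and 0.0466% higher of 8575 genes in either case. The 15 members called lower were among the 33, and none of the 4 called higher was. Of the 33, 15 and 13 had an unadjusted p under 0.05. These 33 were picked through their young WT level, so the counts cannot be read apart from that choice. In CPM, all old KO libraries lay below all young WT libraries in 17 members and above them in 4, as in 4.06% and 53.5% of all tested genes, and in 15.4% and 5.11% of those above background in 2 libraries of a group. Any 2 of the 3 comparisons share a group of libraries.

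**Figure D3:**
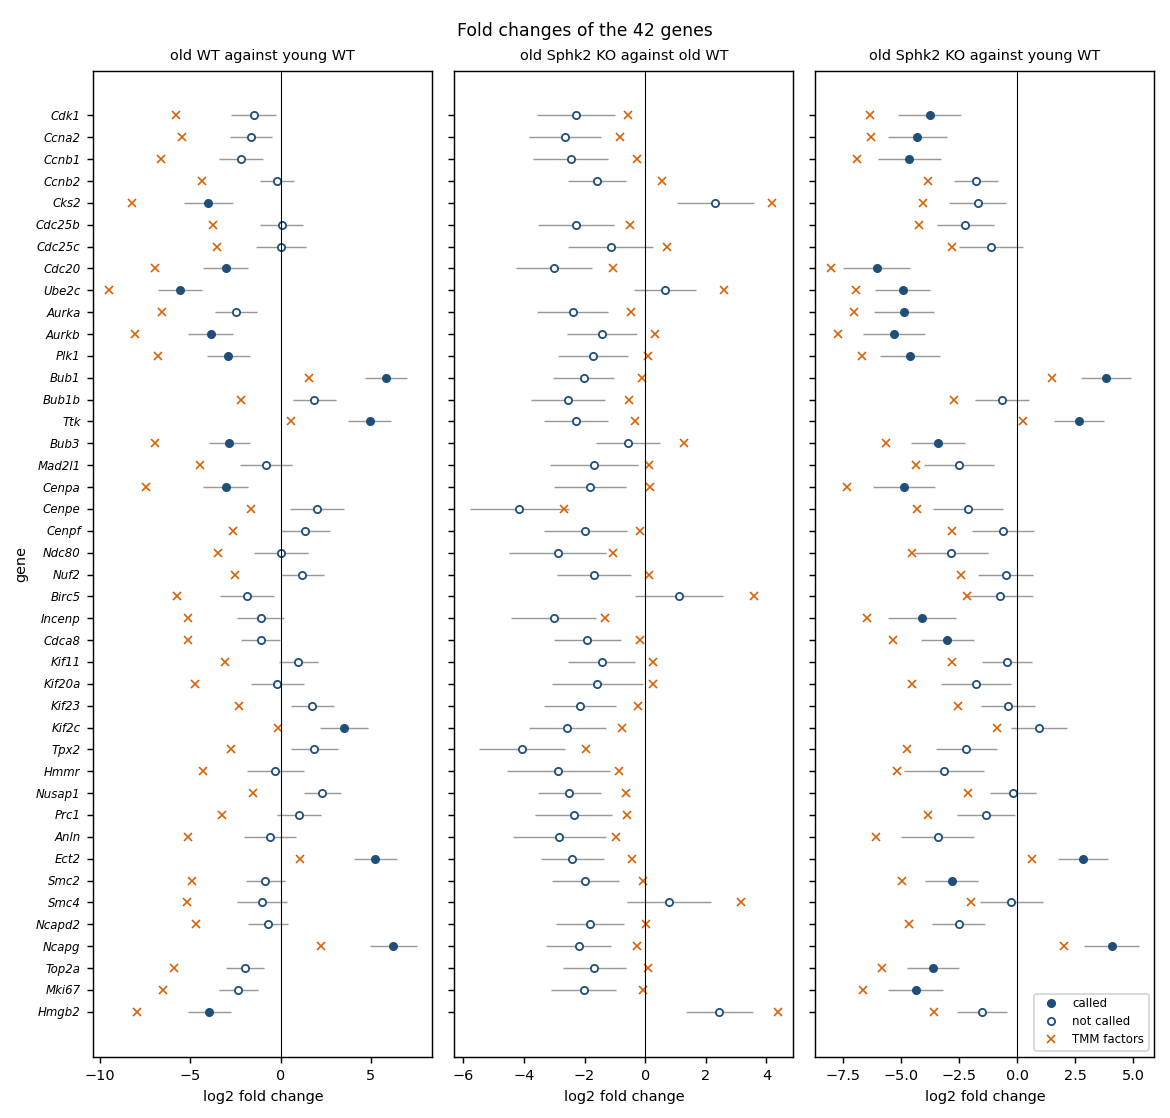
Log2 fold changes (x axis, ± SE) of the 42 members on the CPM scale in the 3 comparisons, filled where called, with crosses for the values with TMM factors. In old WT against young WT 8 filled points lie below 0 and 5 above, in old KO against old WT none is filled, and in old KO against young WT 15 lie below 0 and 4 above.

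Among CDK1, its cyclins, its adaptor and its phosphatases, the values below are CPM in replicates 1, 2 and 3, and fold changes are log2 values with their SE. Cdk1, the kinase that starts mitosis, was at 95.3, 26.1 and 2.58 in young WT, at 9.97, 18.4 and 16.2 in old WT and at 3.79, 4.25 and 1.08 in old KO. The young values spanned 37.0-fold, and the lowest of them lay below all old WT values. The fold change was -1.47 ± 1.25 (edgeR adjusted p = 0.305) in old WT and -3.76 ± 1.36 (edgeR adjusted p = 0.0296) in old KO against young WT, and the latter call was lost without young WT replicate 1 or without any 1 of the old KO libraries. It was also lost with limma-voom, after thinning, in the 6 compared libraries alone and with a replicate block. Ccnb1, the cyclin B1 partner of CDK1, was at 155, 71.7 and 27.6 in young WT, at 3.71, 10.5 and 42.1 in old WT and at 3.27, 3.46 and 3.48 in old KO. All old KO values lay below all young ones, and the old KO fold change was -4.64 ± 1.35 (edgeR adjusted p = 0.0134). Ccna2, the cyclin A2 of S phase and G2, was at 24.7, 69.2 and 7.41, 18.96, 6.36 and 6.96 and 2.53, 1.51 and 1.14 in the same order of groups, with -4.29 ± 1.28 (edgeR adjusted p = 0.0146) in old KO against young WT, a call lost without old KO replicate 2. Ccnb2, the cyclin B2 gene, was low throughout at 3.72, 5.02 and 7.86, 2.15, 2.54 and 9.86 and 2.01, 1.33 and 1.48, and was above background in the young WT libraries and in no old one.

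Cks2, a small adaptor that docks CDK1 to its substrates, was the member of this role found above background in old KO. It was at 46.6, 32.3 and 106 in young WT, at 3.52, 0.954 and 6.96 in old WT and at 32.4, 22.2 and 2.45 in old KO. Old WT fell below young WT in every library, with a fold change of -4.01 ± 1.36 (edgeR adjusted p = 0.0142) that was lost without old WT replicate 1 or 2. In old KO it stood 91.8, 48.7 and 11.00 times over background, and its fold change against old WT was 2.31 ± 1.27 (edgeR adjusted p = 0.199). The old KO and old WT values overlapped in CPM. The phosphatases that activate CDK1 were unevenly present in young WT: Cdc25b was at 0.567, 21.1 and 13.4, 13.9, 6.99 and 15.7 and 1.71, 4.79 and 1.03, and Cdc25c at 0.02702, 18.5 and 0.516, 5.47, 7.63 and 6.09 and 3.34, 3.01 and 2.34. Cdc25c was above background in young WT replicate 2 and in no other library.

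Of the partners of the anaphase promoting complex, Ube2c, its ubiquitin-conjugating enzyme, was the steadiest difference between young and old. It was at 234, 306 and 214 in young WT, at 2.93, 7.95 and 4.93 in old WT and at 3.05, 10.9 and 10.9 in old KO. No old value came near a young one, and the fold change was -5.58 ± 1.23 (edgeR adjusted p = 0.0011) in old WT and -4.93 ± 1.19 (edgeR adjusted p = 0.00919) in old KO against young WT, calls that held without any single library. It stood 2.297, 6.38 and 13.00 times over background in old KO and 0.569, 1.69 and 0.617 times in old WT. Tnnc2 on the opposite strand overlaps 22.8% of its exons, and the strand setting of the counts is not given in the sources used here. Cdc20, which activates the complex at anaphase, was at 9.28, 65.7 and 108 in young WT, at 7.23, 3.82 and 11.3 in old WT and at 0.372, 1.595 and 0.798 in old KO. Its lowest young value lay within the old WT values, and the old WT fold change of -3.03 ± 1.25 (edgeR adjusted p = 0.0388) was lost without young WT replicate 3, without any 1 of the old WT libraries, with limma-voom and with a replicate block. The old KO fold change was -6.04 ± 1.44 (edgeR adjusted p = 0.00919), with all old KO values below all young ones.

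Of the mitotic kinases, Aurkb, Aurka and Plk1 were above background in every young WT library and in no old one. Aurkb, the kinase of the chromosomal passenger complex, was at 101, 10.4 and 74.7 in young WT, at 6.06, 3.497 and 3.19 in old WT and at 1.86, 1.95 and 0.912 in old KO, with no overlap between young and old. Its fold change was -3.86 ± 1.25 (edgeR adjusted p = 0.0111) in old WT, lost without old WT replicate 3, and -5.30 ± 1.34 (edgeR adjusted p = 0.0097) in old KO. Aurka, the kinase of spindle poles, was at 20.7, 6.301 and 71.2, 3.52, 6.36 and 7.83 and 0.966, 1.42 and 0.969, with -2.47 ± 1.17 (edgeR adjusted p = 0.0683) in old WT and -4.87 ± 1.30 (edgeR adjusted p = 0.0109) in old KO. Plk1, the Polo-like kinase of spindle assembly, was at 7.62, 18.01 and 55.1, 3.91, 3.497 and 3.48 and 0.297, 2.04 and 0.969. Its old WT fold change of -2.89 ± 1.19 (edgeR adjusted p = 0.038) was lost under the same settings as that of Cdc20, and that of old KO was -4.61 ± 1.28 (edgeR adjusted p = 0.0118).

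Of the checkpoint kinases, Bub1 and Ttk had positive fold changes on the CPM scale at old levels near background, and both were above background in young WT replicate 1 alone. Bub1 was at 0.513, 0.178 and 0.226 in young WT, at 17.2, 12.1 and 25.2 in old WT and at 3.64, 6.11 and 3.59 in old KO, which is 1.53 to 2.56 times background in the old libraries. Its fold change was 5.84 ± 1.18 (edgeR adjusted p = 0.000803) in old WT and 3.81 ± 1.07 (edgeR adjusted p = 0.0122) in old KO. Neither was called with TMM, RLE or upper-quartile factors or with DESeq2, and the old KO call was also lost after thinning. Ttk, the kinase that starts checkpoint signalling, was at 1.03, 0.0712 and 0.387, 13.5, 12.1 and 21.2 and 3.05, 3.899 and 2.68, with 4.94 ± 1.18 (edgeR adjusted p = 0.00174) in old WT and 2.66 ± 1.07 (edgeR adjusted p = 0.0444) in old KO. The old KO call of Ttk was lost without any 1 library except young WT replicate 1, and its sign turned with RLE factors and with DESeq2. This old KO call was also lost with TMM or upper-quartile factors, with no filter, in the 6 compared libraries alone and with a replicate block. The old WT call of Ttk was lost with TMM, RLE or upper-quartile factors and with DESeq2. Bub1b, which encodes the checkpoint protein BubR1, was above background in young WT replicates 1 and 3 and was at 1.46, 0.498 and 12.5, 12.5, 14.3 and 26.7 and 2.304, 3.899 and 3.02. By edgeR's test it was called in neither old group against young WT, at 1.88 ± 1.19 (edgeR adjusted p = 0.167) in old WT, or -2.18 with TMM factors, and at -0.65 ± 1.16 (edgeR adjusted p = 0.644) in old KO. Limma-voom called it higher in old WT (limma-voom adjusted p = 0.0362), at 1.48 to 2.03 times background.

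In the checkpoint and kinetochore group, Bub3 and Cenpa were plentiful in young WT. Bub3, the checkpoint protein that carries Bub1 and BubR1 to kinetochores, was at 141, 98.4 and 165 in young WT, at 12.5, 19.7 and 23.8 in old WT and at 25.9, 6.203 and 5.59 in old KO. All old values lay below all young values, with fold changes of -2.85 ± 1.14 (edgeR adjusted p = 0.0328) in old WT and -3.42 ± 1.16 (edgeR adjusted p = 0.0231) in old KO. The old WT call was lost without young WT replicate 3, without any 1 of the old WT libraries, after thinning and with a replicate block, and the old KO call without old KO replicate 2 or 3. Cenpa, the histone variant that marks centromeres, was at 237, 17.8 and 136 in young WT, at 9.38, 9.22 and 29.3 in old WT and at 6.24, 4.697 and 2.51 in old KO. Its old WT fold change of -3.03 ± 1.24 (edgeR adjusted p = 0.0367) was lost without young WT replicate 1 or 3 or old WT replicate 1 or 2, after thinning and with a replicate block, whereas that of old KO, -4.86 ± 1.35 (edgeR adjusted p = 0.0118), held without any single library.

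Cenpe, a kinetochore motor, was high in 1 old WT library. It was at 53.1, 106 and 0.999 in young WT, at 21.3, 606 and 30.2 in old WT and at 11.00, 21.2 and 4.84 in old KO, so that old WT replicate 2 stood 38.9 times over background with 1907 counts while the other old WT libraries were at background. Mad2l1, the checkpoint inhibitor of Cdc20, was at 8.11, 145 and 1.19, 30.7, 20.03 and 37.1 and 19.2, 6.11 and 1.82, high in young WT replicate 2. The other kinetochore genes were each high in 1 or 2 young WT libraries. Cenpf, a large kinetochore protein, was at 1.69, 0.712 and 36.7, 39.9, 19.1 and 42.3 and 11.9, 10.8 and 3.08. Ndc80 and Nuf2, partners in the complex that grips microtubules, were at 0.0675, 39.98 and 0.677 and 0.243, 13.7 and 6.19 in young WT, at 4.89, 22.9 and 14.2 and 11.5, 15.3 and 19.7 in old WT, and at 2.304, 1.95 and 1.42 and 4.01, 7.89 and 2.51 in old KO. Young WT replicate 2 held the highest value of both. None of the fold changes of these 5 genes was called by edgeR's test of all 9 libraries on the CPM scale.

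The scaffold of the chromosomal passenger complex was present in young WT and, for Birc5, in 1 old KO library. Birc5, which encodes survivin, was at 4.701, 52.2 and 54.4 in young WT, at 7.62, 7.95 and 15.1 in old WT and at 0.966, 1.42 and 64.1 in old KO. Old KO replicate 3 exceeded every young WT value, and the other old KO libraries were below background. Incenp, the inner centromere protein, was at 75.1, 42.1 and 0.709, 13.7, 34.02 and 7.83 and 2.898, 2.39 and 1.54, with -4.11 ± 1.46 (edgeR adjusted p = 0.0275) in old KO. Its call was lost under the same settings as that of Cdk1, limma-voom and the replicate block included. Cdca8, the borealin gene, was at 38.6, 32.5 and 19.4, 24.05, 7.63 and 10.4 and 2.53, 6.73 and 1.99, with -3.01 ± 1.15 (edgeR adjusted p = 0.0361) in old KO. Leaving out any 1 old library, WT or KO, ended the call of Cdca8, as did a fit with no filter, one of the 6 compared libraries alone and a replicate block.

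Spindle motors and microtubule binders were patchy in young WT and at background in old libraries apart from Tpx2. Tpx2, which activates Aurora A on the spindle, was at 30.9, 7.48 and 5.801 in young WT, at 12.7, 11.8 and 138 in old WT and at 2.97, 5.32 and 1.42 in old KO. Old WT replicate 3 was above all young values and stood 9.601 times over background. Hmmr, a spindle assembly factor, was at 0.149, 0.463 and 93.1, 21.7, 19.1 and 36.5 and 5.42, 2.39 and 2.79, so that young WT replicate 3 alone carried it. Kif20a, a motor of the central spindle, was at 29.8, 0.0712 and 0.419, 9.58, 3.82 and 13.3 and 2.601, 5.14 and 1.197, with young WT replicate 1 alone above background, and Cdc23 on the opposite strand overlaps 29.3% of its exons. Kif2c, which takes microtubules apart at centromeres, was at 0.203, 3.77 and 0.129, 6.26, 20.98 and 19.7 and 3.64, 3.01 and 1.25. Its old WT values stood 0.724, 2.66 and 1.47 times over background. Its fold change in old WT was 3.52 ± 1.32 (edgeR adjusted p = 0.0241), and -0.12 with TMM factors. The call was lost without young WT replicate 3 or old WT replicate 3, with TMM, RLE or upper-quartile factors and with DESeq2.

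Kif11, the motor that pushes spindle poles apart, was at 11.00, 9.08 and 0.838 in young WT, at 17.4, 12.7 and 11.6 in old WT and at 3.86, 9.04 and 2.51 in old KO. Kif23, a central spindle motor, was at 7.58, 14.1 and 1.26, 26.98, 8.903 and 42.1 and 8.03, 6.91 and 2.51. Prc1, which bundles microtubules of the central spindle, was at 22.1, 7.83 and 0.290, 24.05, 20.03 and 17.4 and 5.35, 4.61 and 1.99. These 3 genes were above background in young WT replicates 1 and 2 and in no other library. Nusap1, a microtubule-stabilising protein, was at 1.23, 5.87 and 1.13, 13.5, 10.5 and 16.8 and 2.75, 2.92 and 1.54, above background in all young WT libraries. Its old WT values all lay above its young ones, at 1.35 to 1.68 times background, with 2.31 ± 1.02 (edgeR adjusted p = 0.0525). Of the cytokinesis genes, Anln, the anillin of the contractile ring, was at 158, 2.10 and 1.45, 27.2, 27.3 and 52.8 and 5.35, 6.82 and 2.85, and Ect2, the exchange factor that activates RhoA at the cleavage site, at 0.554, 0.285 and 0.806, 22.9, 7.95 and 32.2 and 5.28, 3.99 and 2.68. The Anln reads of young WT came mostly from replicate 1. Ect2 had fold changes of 5.24 ± 1.19 (edgeR adjusted p = 0.0013) in old WT and 2.84 ± 1.07 (edgeR adjusted p = 0.0344) in old KO at 0.816 to 2.14 times background in old libraries, and the second was lost without young WT replicate 1 or 2, old WT replicate 1 or 2 or old KO replicate 1 or 2. Neither call of Ect2 was made with TMM, RLE or upper-quartile factors or with DESeq2. The second was also lost with no filter, after thinning and with a replicate block.

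In the condensin and chromosome group evenness varied widely. Mki67, whose protein coats mitotic chromosomes and serves as a marker of cycling cells, was at 119, 86.9 and 104 in young WT, at 17.6, 11.8 and 31.6 in old WT and at 5.57, 6.11 and 3.25 in old KO. Its young values spanned 1.37-fold, the least of all 42 members, and no old value reached them. The fold change was -2.34 ± 1.07 (edgeR adjusted p = 0.0605) in old WT and -4.37 ± 1.17 (edgeR adjusted p = 0.011) in old KO. Top2a, the topoisomerase that untangles sister chromatids, was at 98.4, 157 and 79.4, 22.3, 31.8 and 32.8 and 8.84, 13.5 and 4.84, again without overlap, with -1.95 ± 1.06 (edgeR adjusted p = 0.109) in old WT and -3.62 ± 1.13 (edgeR adjusted p = 0.0168) in old KO. Neither was called in old WT by edgeR's test of all 9 libraries on the CPM scale. On that scale Mki67 was called lower by limma-voom (limma-voom adjusted p = 0.0185) and in the 6 compared libraries alone, and Top2a by neither. With TMM factors edgeR called both, at -6.53 for Mki67 and -5.91 for Top2a (edgeR adjusted p = 0.00606 and 0.00702).

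Hmgb2, a chromatin protein that is abundant in dividing cells, had the highest level per kb of exon in young WT. It was at 451, 288 and 224 in young WT, at 8.41, 38.8 and 15.4 in old WT and at 184, 19.6 and 137 in old KO. Old WT fell below young WT with -3.94 ± 1.18 (edgeR adjusted p = 0.00695), a call that held without any single library. Old KO libraries stood 120, 9.93 and 141 times over background, and the fold change was 2.44 ± 1.11 (edgeR adjusted p = 0.165) against old WT and -1.50 ± 1.07 (edgeR adjusted p = 0.234) against young WT. The old KO values overlapped those of old WT and lay below those of young WT. Together with Cks2 it was above background in every old KO library.

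Of the condensin subunits, Smc2 was at 40.9, 60.7 and 14.7 in young WT, at 26.00, 11.4 and 27.3 in old WT and at 4.46, 7.798 and 4.16 in old KO, with -2.82 ± 1.14 (edgeR adjusted p = 0.0447) in old KO, a call lost without any 1 library except young WT replicate 3. It was also lost with no filter, in the 6 compared libraries alone and with a replicate block. Smc4, its partner in the condensin ring, was at 82.6, 82.8 and 2.22, 28.7, 19.7 and 33.1 and 3.64, 12.9 and 125. Old KO replicate 3 again stood out, at 74.4 times background, in the library that also held the Birc5 reads. Ncapd2, a condensin I subunit, was at 38.1, 23.9 and 80.6, 15.2, 48.6 and 24.1 and 4.38, 12.2 and 8.44, with -2.51 ± 1.14 (edgeR adjusted p = 0.0697) in old KO. Ncapg, another condensin I subunit, was at 0.162, 0.534 and 0.258, 12.9, 17.2 and 43.5 and 5.796, 7.53 and 2.68, at most 2.003 times background in any library. Its fold changes of 6.26 ± 1.30 (edgeR adjusted p = 0.000887) in old WT and 4.06 ± 1.18 (edgeR adjusted p = 0.0134) in old KO therefore compare background levels, and Lcorl on the opposite strand overlaps 13.4% of its exons.

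**Figure D4:**
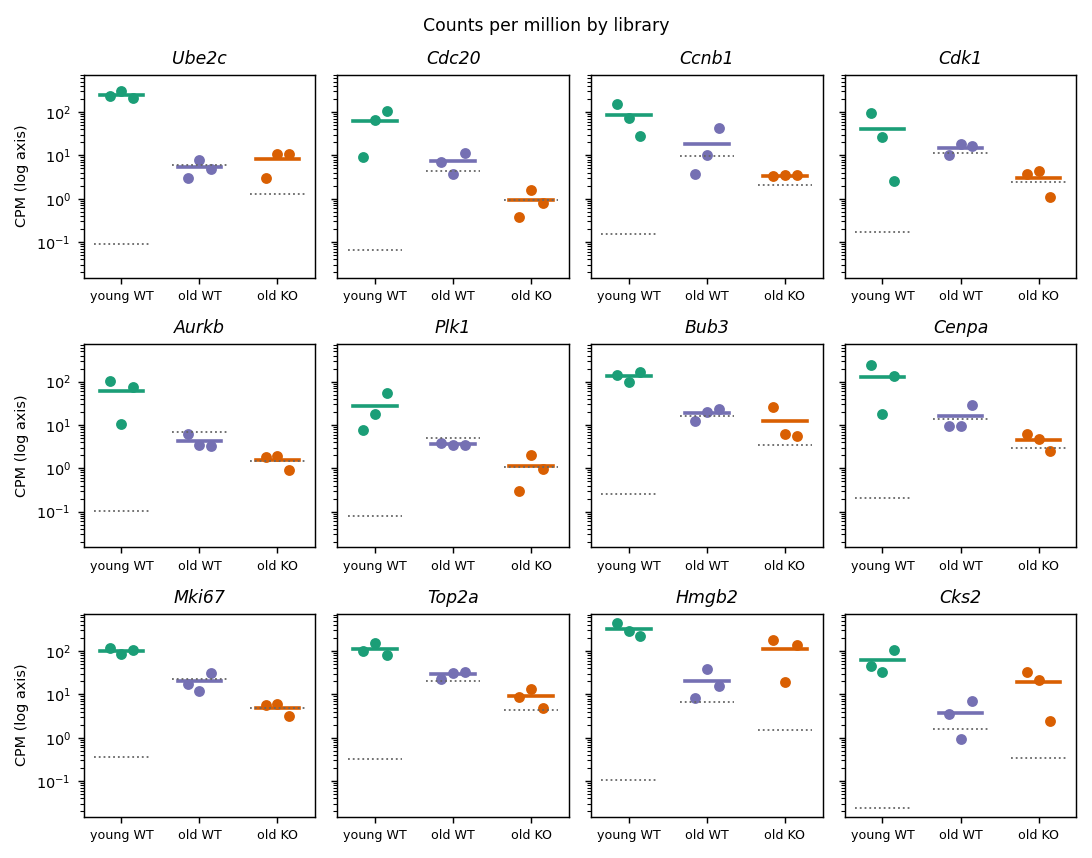
CPM of 12 members in each library (log y axis), with bars for group means and dotted lines for the mean expected background. Ube2c and Mki67 separate young from old without overlap, and Cks2 and Hmgb2 rise above the dotted line in the old KO libraries.

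Ordered by mean CPM per kb of exon in young WT, Hmgb2 came first at 107 ± 38.9 (SD, n = 3), followed by Ube2c at 96.8 ± 18.6 and Cks2 at 89.2 ± 56.6. These 3 levels did not differ beyond their spread. Cdc20 at 32.6 ± 26.5, Cenpa at 22.3 ± 18.8, Aurkb at 21.1 ± 15.9, Ccnb1 at 20.1 ± 15.3 and Bub3 at 19.2 ± 4.79 came next and overlapped one another. At the other end stood Ncapg at 0.0450 ± 0.0273, Bub1 at 0.0702 ± 0.0417, Ttk at 0.101 ± 0.0990 and Ect2 at 0.102 ± 0.0484. Genes whose proteins act in the same complex could stand far apart in this order, as did the checkpoint partners Bub3 and Bub1.

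Young WT libraries did not agree on which mitotic genes they held. The highest young value of a member exceeded the lowest by a median of 11.4-fold, from 1.37-fold for Mki67 to 685-fold for Cdc25c, and by more than 10-fold in 23 of 42 members. For the 23 members above background in every young WT library the median was 5.33-fold, and among 5385 protein-coding genes chosen in the same way it was 4.34-fold. Among genes above background in at least 1 young WT library it was 11.6-fold for 41 members and 14.1-fold for all protein-coding genes. The unevenness of the mitotic genes was therefore near that of other genes of these libraries.

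Whether the old libraries could have shown the young levels was read from each library's own limit, the CPM value at which a gene counts as above background. In old WT only 3 to 4 members had a lowest young WT level over this limit: Cks2, Ube2c, Hmgb2 and, in replicates 1 and 2, Bub3. One of these values, Hmgb2 in replicate 2, was above background. In the old KO libraries 14, 12 and 17 members had a lowest young level over the limit, and 3 of them were above background in each, which is 21.4%, 25.0% and 17.6%. Among all protein-coding genes the same share was 55.9%, 56.7% and 66.7% in old KO and 26.8%, 30.7% and 24.5% in old WT. The 3 members were Cks2, Bub3 and Hmgb2 in replicate 1, and Cks2, Ube2c and Hmgb2 in replicates 2 and 3. Ccnb1, Cdc20, Aurkb, Plk1, Cdca8, Ncapd2, Top2a and Mki67 had young levels over the limit of all 3 old KO libraries and were above background in none of them. Cks2, Ube2c, Bub3 and Hmgb2 also had young levels over the limit of all 3 old KO libraries. Of these, Ube2c in replicate 1 and Bub3 in replicates 2 and 3 were not above background. For the members named in neither group a level like that of the lowest young library was not detectable in at least 1 old KO library. Genes picked by their young levels tend to be lower elsewhere, so the shares are set beside those of other genes picked in the same way and are given with no test. The sets were not matched on how far the young level lay over the limit.

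**Figure D5:**
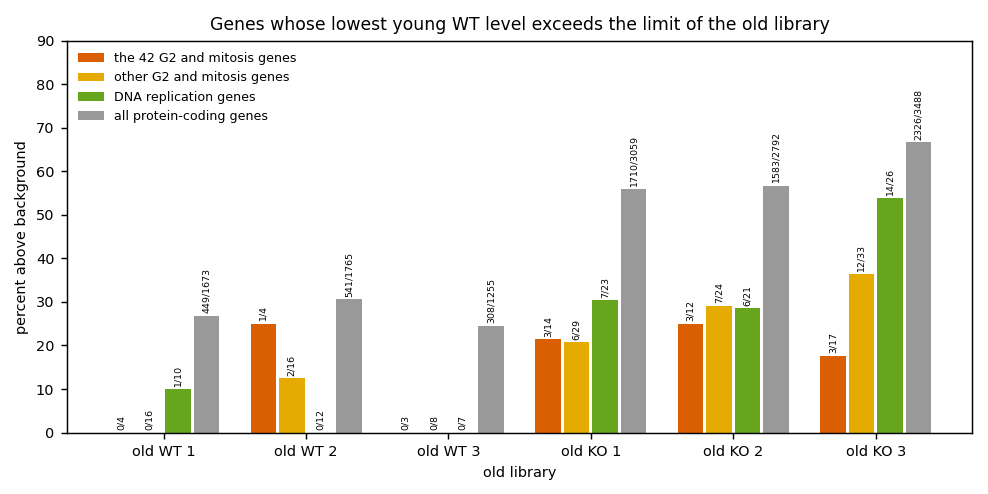
Bars give the percent of genes above background in each old library among genes whose lowest young WT level exceeds that library's limit, for the 42 members, 126 other G2 and mitosis genes, 46 DNA replication genes and all protein-coding genes. In the old KO libraries the members reach 17.6% to 25.0% and all protein-coding genes 55.9% to 66.7%.

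The lists around the members were read in the same way. Of 126 other G2 and mitosis genes, 29, 24 and 33 had a lowest young level over the old KO limits, and 20.7%, 29.2% and 36.4% of these were above background. Of 46 DNA replication genes it was 23, 21 and 26 with 30.4%, 28.6% and 53.8%. Over each whole list, 36 of 42 members, 85 of 126 other G2 and mitosis genes and 23 of 46 DNA replication genes were above background in no old KO library, against 39 of 42, 112 of 126 and 42 of 46 in no old WT library. As shares these are 85.7%, 67.5% and 50% for old KO and 92.9%, 88.9% and 91.3% for old WT, beside 73.0% and 90.8% of all protein-coding genes.

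Of the regulators of the programme, Foxm1 was at 0.648, 10.4 and 0.387 CPM in young WT, at 9.78, 20.98 and 19.7 in old WT and at 2.601, 5.67 and 1.31 in old KO, above background in 2 young WT libraries and no old one. Mybl2, which encodes B-MYB, was at 0.365, 0.819 and 13.8, 1.56, 12.4 and 12.8 and 2.53, 3.54 and 1.88, above background in young WT replicate 3 and no other library. Neither was called in any comparison by edgeR's test on the CPM scale. Of the 126 other G2 and mitosis genes, 12 were called lower and 30 higher in old WT than in young WT, and 19 lower and 11 higher in old KO than in young WT (edgeR, CPM scale). These are 9.52% and 23.8% of the list beside 3.48% and 68.4% of all genes, and 15.1% and 8.73% beside 3.93% and 52.7%. Between old KO and old WT edgeR called 0 of them, and 28 had an unadjusted p under 0.05, with no share of all genes computed at that cut. With TMM factors 57 were lower and 1 higher in old WT than in young WT, 1 rose in old KO against old WT, and 29 were lower in old KO than in young WT. All genes called with TMM factors were 18.4% lower and 18.6% higher, 0.457% higher, and 5.84% lower in these comparisons. The 8 most abundant of the lower genes in old WT were Tfdp1, Numa1, Anapc5, Ube2s, Cdca3, Cenph, Pimreg and Mis18a.

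Some partners of the anaphase promoting complex were present in old KO libraries. Ube2s, which extends ubiquitin chains after Ube2c has started them, was at 211, 103 and 163 CPM in young WT, at 12.5, 37.2 and 15.95 in old WT and at 160, 96.8 and 37.6 in old KO, above background in all 3 old KO libraries and in no old WT library. Its old WT fold change against young WT was -2.86 ± 1.10 (edgeR adjusted p = 0.0272). Anapc5, a subunit of the complex, was at 350, 194 and 162, 20.9, 13.04 and 27.8 and 12.5, 412 and 330, above background in old KO replicates 2 and 3, with -3.51 ± 1.21 (edgeR adjusted p = 0.0158) in old WT. Tfdp1, the E2F partner, was at 379, 108 and 328, 4.301, 18.1 and 30.7 and 11.1, 9.92 and 4.05, with -3.94 ± 1.20 (edgeR adjusted p = 0.00747) in old WT and -5.02 ± 1.26 (edgeR adjusted p = 0.00956) in old KO. The higher genes were led by Fam83d, a spindle protein, at 0.567, 0.0712 and 0.0322, 685, 6.99 and 23.8 and 18.3, 2.48 and 1.596, where old WT replicate 1 carried the reads.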

How the data were processed

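RNA sequencing was done on 9 libraries of sorted mouse HSCs, 3 per group. The authors deposited 1 table of raw counts per gene, made, per the submitters' processing notes, on genome build mm10 with STAR 2.6.1d and HTSeq 0.10.0 among the tools. Trim Galore 0.6.2 and edgeR 3.24.3 are also listed there. The sources used here give neither annotation nor strand setting for the counts, so reads of antisense partners or near-identical copies could not be separated. The table's 5 lines that name no gene entered neither totals nor tests. Of 52550 identifiers 52403 had a symbol, and exon lengths come from GENCODE M21 on the same build.

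CPM are counts per 1000000 counts in genes. Fold changes come from edgeR 4.0.16 in R 4.3.3, with the quasi-likelihood F test on all 9 libraries, 1 mean per group, total counts as library size and the low-count filter filterByExpr, adjusted by Benjamini-Hochberg over 32582 genes at 0.05. Total counts were used because levels are given in CPM. TMM factors, which lie far from that scale, were the first alternative. Most tested genes carry only background reads in the old libraries. The others were RLE and upper-quartile factors, DESeq2 1.42.0, limma-voom (limma 3.58.1), other filters, genes above background, background subtraction, thinning to 3145167 counts, the 6 compared libraries, a threshold of 0.1, leave-outs of each library and a replicate block. Scripts were tested on simulated data.

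Background is the read density over the exons of 1122 of 1134 olfactory receptor genes, after the densest 1% were left out. Fold changes are of the group named first over the second. Promoter letters come from RefSeq windows, which 7 members lack (Tpx2, Incenp, Ccna2, Cdc25c, Kif20a, Smc4 and Aurkb). Where a member has several windows, a match in any of them counted.

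The rule for named genes took members called in any comparison, the 2 with the highest mean CPM in each role, members whose old KO libraries all lay above or below old WT, Sphk2, Foxm1 and Mybl2, and up to 8 called genes of the other G2 and mitosis list. The report gives the library values of all 42 members, and of the called genes of the other list it gives values for a few picked after these were seen. Hjurp, which was not called, was added outside the rule in the same way. Members and lists were chosen with earlier results of these data known. No 2 libraries held the same values. Their Pearson correlation across genes in log2 CPM was 0.467 to 0.826. Libraries that share a replicate number did not deviate together (correlation of their deviations -0.03 to 0.02), so the numbers were not taken as pairs.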

Additional observations from a re-analysis of the deposited data

How the results depend on the processing

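In old WT against young WT, where 8 members were lower and 5 higher, the counts were 24 and 1 with TMM or RLE factors, 22 and 1 with upper-quartile factors and 27 and 1 with DESeq2. Over all genes the lower and higher shares moved from 3.48% and 68.4% to 18.4% and 18.6% (TMM), 18.2% and 23.1% (RLE), 17.7% and 28.5% (upper quartile) and 19.8% and 31.9% (DESeq2). Limma-voom gave 8 lower and 7 higher, among 4.22% and 71.6% of all genes, with a member median of 0.64 in place of -0.64. Among the lower members it dropped Cdc20 and Plk1 and added Mki67 and Ccnb1, and among the higher it added Nusap1 and Bub1b. Among genes above background, where 33 members were tested, 1 was lower with TMM factors and 0 after background subtraction, beside 2.12% and 0.0816% of these genes. None of the members called higher was in those fits, which members entered through their young WT level, so their 0 higher in either comparison says nothing on those calls. Lower values in those fits cannot be read apart from that choice either. With a replicate block 4 members were lower and 5 higher, among 2.92% and 68.1% of all genes. In old KO against young WT, where 15 were lower and 4 higher, 28 were lower and 1 higher with DESeq2 (13.7% and 14.3% of all genes). Limma-voom gave 14 lower and 4 higher (3.34% and 57.0% of all genes). Among genes above background or after subtraction 0 members were lower, as were 0% of the genes in those fits. With TMM, RLE or upper-quartile factors 0 were higher, among 6.92%, 4.96% and 12.6% of all genes. With no filter, after thinning, or with the replicate block 2 were higher, among 41.2%, 34.6% and 45.9% of the genes tested. In old KO against old WT, with none called, the 6 compared libraries alone gave 16 lower and DESeq2 gave 3 higher, among 27.6% and 6.23% of the genes tested. Kif2c turned to -0.12 with TMM factors in old WT against young WT, and Ttk to -0.14 with RLE factors and with DESeq2 in old KO against young WT. The cause of these shifts was not tested.

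Leaving out each library gave 3 to 9 members lower and 4 to 8 higher in old WT against young WT, with 3 lower without old WT replicate 1 or 2, 4 without young WT replicate 3, 5 without old WT replicate 3, and 8 higher without young WT replicate 2. It gave 9 to 16 lower and 2 to 4 higher in old KO against young WT, with 9 lower without old KO replicate 2, and 2 higher without that library, old KO replicate 1 or old WT replicate 1 or 2. Over all tested genes these fits called 1.92% to 3.44% lower and 64.6% to 70.7% higher in old WT against young WT. In old KO against young WT the shares were 1.69% to 3.85% lower and 31.1% to 48.5% higher. Of the called members, 6 of 13 and 11 of 19 kept their call in every such fit. The replicate block changed no call in old KO against old WT.

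At 10 counts and 3 times background the members above background were 36, 34 and 31 in young WT, then 0, 4 and 3 for old WT, then 4, 5 and 7 for old KO. At 10 times they were 32, 33 and 25, then 0, 1 and 0, then 2, 1 and 5 in the same order, and after thinning to the smallest total 27, 30 and 23, then 0, 2 and 1, then 3, 3 and 4. All protein-coding genes were not counted at these other cuts, so the gap between young and old there cannot be read as a trait of the members. At the main cut much of the drop was shared with genes in general. The limit in CPM for counting as above background was highest in the old WT libraries, where 4 members at most had a lowest young level over it.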

Other observations

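Among the regulators in the list of other G2 and mitosis genes, E2f4, which encodes an E2F protein found in repressor complexes of resting cells, was at 43.04, 143 and 41.4 CPM in young WT, at 7.62, 3.82 and 5.80 in old WT and at 213, 151 and 201 in old KO. All young WT and old KO values were above background and no old WT value was. Its fold change was -3.72 ± 1.12 (edgeR adjusted p = 0.00716) in old WT against young WT and 5.03 ± 1.19 (edgeR adjusted p = 0.146) in old KO against old WT, and with TMM factors the latter was 6.99 (edgeR adjusted p = 0.0338). It was singled out after its values were seen. Hjurp, the chaperone that loads the Cenpa protein at centromeres, was at 161, 147 and 7.96, 77.8, 174 and 163 and 46.7, 41.6 and 219, above background in 2 old WT libraries and in all 3 old KO libraries, while Cenpa itself was above background in none of the old ones. None of the Hjurp fold changes was called by edgeR's test on the CPM scale, so Hjurp lay outside the rule for named genes. It too was singled out after its values were seen.

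Of 46 DNA replication genes, 45 were tested, and 10 were called lower and 2 higher in old WT than in young WT, and 12 lower and 1 higher in old KO than in young WT (edgeR, CPM scale). That is 22.2% and 4.44% of those tested beside 3.48% and 68.4% of all genes, and 26.7% and 2.22% beside 3.93% and 52.7%. With TMM factors 37 were lower and 1 higher in old WT than in young WT, and 15 were lower in old KO than in young WT, which is 82.2%, 2.22% and 33.3% beside 18.4%, 18.6% and 5.84% of all genes.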
